A study of Mus musculus with 16 samples.

Results

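Before and shortly after doxycycline, 2 immortalized mouse embryonic fibroblast lines that differ in their Sdhc alleles already differed in the expression of many genes. The account covers the 6 libraries of days 0, 5 and 9, out of 16 in the series. They are 3 libraries of the line named exp and 3 of the line named ctl, chosen by their labelled day and paired by it. The exp line has the genotype R26M2rtTA/+;TetOcre;Sdhcfl/fl and the ctl line R26M2rtTA/+;TetOcre;Sdhcfl/wt. Both therefore carry the reverse tetracycline transactivator at the Rosa26 locus, a Cre recombinase gene under a tetracycline operator, and at least 1 Sdhc copy flanked by loxP sites. Doxycycline, the drug that switches this Cre on, was used at 1 microgram per mL in both lines. Each genotype is represented by 1 line, so differences of genotype and of line cannot be told apart. The labels do not say whether the days are separate cultures, and the p-values measure only the spread between these libraries. Genes on the sex chromosomes are left out of the description.

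Fibroblasts keep much of the gene expression of the body region they came from. Hox genes, transcription factor genes arranged in 4 clusters whose order mirrors the body axis, carry a large part of this positional record, together with other homeobox, T-box and forkhead genes. Embryonic fibroblast cultures are grown from whole or partly dissected embryos, so that a line which has been immortalized can descend from a few cells of any region. Succinate dehydrogenase, of which Sdhc encodes a membrane anchor subunit, oxidizes succinate in the citric acid cycle and passes electrons to the respiratory chain.

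Levels are FPKM, which scales fragments to transcript length and library size, as deposited by the authors. Differences between the lines are exp minus ctl on the log2(FPKM + 1) scale, which understates the difference of genes with low values. The 3 exp libraries held 18121520 to 24485038 reads in genes and the 3 ctl libraries 25559263 to 32035198. The days of the ctl line were closer to each other (Pearson r across genes 0.991 to 0.992) than those of the exp line (0.959 to 0.977), and libraries of different lines were at 0.917 to 0.941. The standard deviation of an autosomal gene over the 3 days had a median of 0.203 in exp and 0.088 in ctl on the log2 scale. The exp library of day 0 held the highest summed level of 26 immediate-early genes, 5440 FPKM against 1300 to 1310 on days 5 and 9, and the ctl library of day 0 held 2750 against 1250 to 1570. The part of this in the line difference was not tested.

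Sdhc, the targeted gene, was slightly lower in exp on each of these days, and the difference was not called. Sdhc (gene ID 66052) lies on chromosome 1 at 173057296 to 173080734, minus strand, in mm9. Its level was 87.8, 54.4 and 43.8 FPKM in exp on days 0, 5 and 9, and 90.5, 58.6 and 47.6 FPKM in ctl. Both lines had their highest value on day 0 and their lowest on day 9, and their ranges overlapped. The log2 difference within a day was -0.0421, -0.1055 and -0.1196 on days 0, 5 and 9. Its mean was -0.09 ± 0.11, with an adjusted p of 0.654 in limma, where the standard error is limma's moderated one, drawn toward that of genes of similar level, and not the spread of the 3 day differences. An exact permutation test on 3 pairs cannot go below a two-sided p of 0.25, so it cannot decide this comparison. An FPKM summed over the whole gene cannot tell which of its exons were present. The other subunits were not called either. Sdha, the flavoprotein, was at 57.4, 81.3 and 83.3 FPKM in exp and 69.5, 73.5 and 71.6 in ctl (adjusted p 0.915 in limma). Sdhb, the iron-sulphur subunit, had an adjusted p of 0.518 in limma and Sdhd, the other membrane anchor, one of 0.178. Of 8 tested subunit and assembly factor genes of this enzyme, 0 passed, against 13.3% of all autosomal genes tested, and the lines did not overlap for 3, against 33.7%. With quantile normalization 1 of the 8 passed.

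Across the genome, 1611 of 12146 autosomal genes tested had a line difference at an adjusted p under 0.05 (limma with day as a factor, Benjamini-Hochberg over all 12583 genes tested), which is 13.3%. Of these, 897 (7.39%) were higher and 714 (5.88%) lower in exp. These shares are the background for every count below, beside a median difference of 0.04 over all autosomal genes tested. At an unadjusted p under 0.05 there were 3412. In simulated data unchanged genes made up more of this fit's calls than the nominal share, so the count is not held to that share of false calls. Without day 5 the count was 719, without day 9 it was 959 and without day 0 it was 1791. The lines did not overlap over the 6 libraries for 4088 autosomal genes (33.7%). The median size of a called difference was 0.78 and that of all autosomal genes 0.18. Differences of at least 1 log2 unit were called for 330 genes higher and 276 lower in exp, of at least 2 for 79 and 88, and of at least 4 for 6 and 8.

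**Figure D1:**
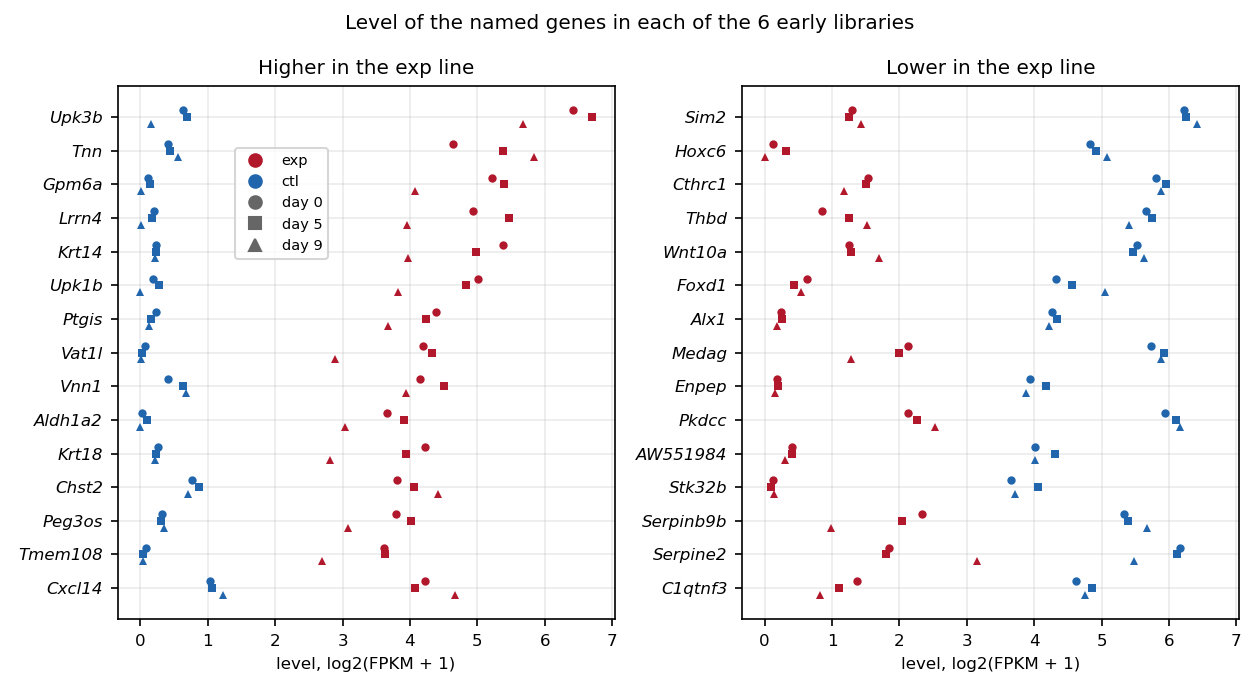
Level of the 15 genes with the greatest called difference in each direction, as log2(FPKM + 1), in each of the 6 early libraries (red exp, blue ctl, with circles, squares and triangles for days 0, 5 and 9). The genes were chosen to have lines that do not overlap, so all 30 show the exp libraries apart from the ctl libraries. The red triangles of day 9 lie lowest for most genes of the left panel from Upk3b to Tmem108, but not for Tnn, Chst2 or Cxcl14.

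The promoters of the 2 leading genes per direction that had a RefSeq promoter are shown so that the sequence before the most different genes can be read, with CpG dinucleotides in capitals. Each is the 250 bases before the annotated start, 5′ to 3′ on the gene's strand, from RefSeq on GRCm38.p6. Upk3b is at chr5:136038246-136038495 (plus strand), Tnn at chr1:160153576-160153825 (minus strand), Foxd1 at chr13:98353995-98354244 (plus strand) and Medag at chr5:149411499-149411748 (plus strand).
Upk3b: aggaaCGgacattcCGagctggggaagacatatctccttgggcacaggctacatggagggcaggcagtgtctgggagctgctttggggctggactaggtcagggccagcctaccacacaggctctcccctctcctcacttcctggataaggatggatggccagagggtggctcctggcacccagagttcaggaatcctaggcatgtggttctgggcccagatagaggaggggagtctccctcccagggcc
Tnn: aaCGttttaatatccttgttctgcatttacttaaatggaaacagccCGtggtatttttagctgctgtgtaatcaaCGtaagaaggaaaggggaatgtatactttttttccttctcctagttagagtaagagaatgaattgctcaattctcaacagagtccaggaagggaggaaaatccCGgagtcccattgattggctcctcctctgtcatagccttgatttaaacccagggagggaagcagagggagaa
Foxd1: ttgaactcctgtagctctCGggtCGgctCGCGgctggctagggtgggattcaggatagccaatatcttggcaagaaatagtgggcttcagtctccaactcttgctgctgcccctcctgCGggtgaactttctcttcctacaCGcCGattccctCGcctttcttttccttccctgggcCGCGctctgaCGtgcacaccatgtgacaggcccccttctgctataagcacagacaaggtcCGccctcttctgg
Medag: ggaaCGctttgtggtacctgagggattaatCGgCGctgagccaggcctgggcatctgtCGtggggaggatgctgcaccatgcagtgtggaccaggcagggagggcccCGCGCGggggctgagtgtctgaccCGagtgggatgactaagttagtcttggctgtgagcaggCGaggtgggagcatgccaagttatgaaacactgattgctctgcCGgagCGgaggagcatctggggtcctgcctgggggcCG
The Upk3b and Tnn promoters, of genes higher in exp, held 2 and 4 CpG, and the Foxd1 and Medag promoters, of genes lower in exp, held 12 each. The median was 17.0 over the same window of the 9254 autosomal genes tested that had a RefSeq promoter. The motif TATAAA was in none of these 4 windows on the strand shown, and 3.75% of the 9254 hold it.

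Over 300 bases (250 before and 50 after the start), the called genes had promoters poorer in CpG than the tested genes as a whole. A ratio of observed to expected CpG of at least 0.6 was found in 76.0% of the 9254 promoters. It was found in 64.4% of the 660 promoters of genes higher in exp and 62.8% of the 495 of genes lower in exp. Among differences of at least 2 log2 units the shares were 49.0% of 51 promoters and 40.4% of 52. TATAAA on the gene's strand within 50 bases before the start was in 1.37% of all, and in 5 of the 52 promoters (9.62%) of genes lower by at least 2 units, against 0 of the 51 on the higher side. These are descriptions with no test, and a matching string does not show a bound factor.

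The 15 leading genes per direction were chosen from called genes whose lines did not overlap, so that separation is a condition of choice. The greatest difference toward exp was that of Upk3b (gene ID 100647), a uroplakin gene used as a marker of mesothelium, the cell layer that lines body cavities. Upk3b was at 84.8, 103.0 and 50.3 FPKM in exp and 0.552, 0.611 and 0.115 FPKM in ctl on days 0, 5 and 9. Every exp library was far above every ctl library, and exp was lowest on day 9. The difference was 5.78 ± 0.13 (SE), with an adjusted p of 1.38e-06 in limma. It lies at 136514366 to 136521173 on the plus strand of chromosome 5 in mm9. Tnn (gene ID 329278, chromosome 1 at 162015165 to 162083711, minus strand), which encodes tenascin N, a matrix glycoprotein of bone and tendon, took the opposite course over the days. It was at 23.8, 40.5 and 56.2 FPKM in exp and at 0.328, 0.357 and 0.471 in ctl. The lines did not overlap, and its difference was 4.81 ± 0.21 (adjusted p 4.47e-05 in limma).

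Of the other 13 leading genes higher in exp, several are epithelial genes. Gpm6a, a membrane glycoprotein gene, was at 36.3, 40.9 and 15.8 FPKM in exp and at no more than 0.107 in ctl. Lrrn4, a leucine-rich repeat membrane protein gene, was at 29.6, 43.2 and 14.6 FPKM in exp and at no more than 0.153 in ctl. Krt14, a keratin gene of basal epithelium, was at 40.8, 30.6 and 14.7 FPKM in exp and at no more than 0.181 in ctl. For all of these the lines did not overlap and the exp library of day 9 was lowest. Upk1b, another uroplakin gene, differed by 4.40 and Krt18, a keratin of simple epithelium, by 3.42. Ptgis, which makes prostacyclin, differed by 3.93, and Vnn1, a pantetheinase gene, by 3.63. Vat1l differed by 3.77, Chst2, a sulphotransferase gene, by 3.31 and Tmem108 by 3.25. Aldh1a2, which makes retinoic acid, differed by 3.49 and the chemokine gene Cxcl14 by 3.21. Peg3os, an antisense transcript of the imprinted Peg3 gene, differed by 3.30, and without a stated strand setting its reads cannot be told apart from those of Peg3. The adjusted p of the 15 genes reached at most 0.00095 in limma, that of Vat1l.

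The greatest difference toward ctl was that of Sim2 (gene ID 20465, chromosome 16 at 94086061 to 94347498, plus strand), a basic helix-loop-helix transcription factor gene. Sim2 was at 1.45, 1.38 and 1.70 FPKM in exp and at 73.3, 75.4 and 84.1 in ctl. Each line was steady over the days and the lines did not overlap. The difference was -4.97 ± 0.10 (adjusted p 1.12e-06 in limma). Foxd1, a forkhead factor gene of the kidney stroma and the ventral forebrain, was at 0.55, 0.359 and 0.448 FPKM in exp and at 19, 22.7 and 32 in ctl. The ctl line alone went up over the days, and the difference was -4.11 ± 0.17 (adjusted p 1.90e-05 in limma). Medag, a gene linked to fat cell formation, was at 3.38, 2.97 and 1.43 FPKM in exp and at 52.1, 60.1 and 58.2 in ctl, a difference of -4.05 ± 0.19 (adjusted p 7.92e-05 in limma).

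The other 12 leading genes lower in exp include secreted and membrane proteins. Cthrc1, a secreted collagen triple helix protein, differed by -4.47 and C1qtnf3, an adipokine gene, by -3.64. Thbd, the thrombomodulin gene, was at 0.810, 1.38 and 1.88 FPKM in exp and at 49.6, 52.6 and 41.3 in ctl, a difference of -4.39. The Wnt ligand gene Wnt10a was at 1.38, 1.44 and 2.23 FPKM in exp and at 45.0, 43.4 and 48.3 in ctl, a difference of -4.13. Enpep, the aminopeptidase A gene, differed by -3.82 and Pkdcc, a secreted tyrosine kinase gene, by -3.76. Stk32b, a kinase gene, differed by -3.69 and AW551984 by -3.74. The serine protease inhibitor gene Serpinb9b was at 4.06, 3.12 and 0.974 FPKM in exp and at 39.1, 41.0 and 49.8 in ctl. Serpine2, which encodes protease nexin, was less steady. It was at 2.61, 2.47 and 7.89 FPKM in exp and at 70.6, 68.5 and 43.8 in ctl, so that the lines approached each other on day 9. Its difference of -3.66 ± 0.47 had an adjusted p of 0.0159 in limma, which rose to 0.344 without day 0 and 0.085 without day 5. The remaining genes, Alx1 (-4.05) and Hoxc6 (-4.79), are transcription factor genes described with their families.

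Of the 29 autosomal Hox genes tested, 26 (89.7%) passed, with exp above ctl for 12 and below it for 14. The direction was uniform within the Hoxc and Hoxd clusters and mixed within Hoxa and Hoxb. All 7 tested Hoxd genes were higher in exp and all 5 tested Hoxc genes were lower. The Hoxa cluster was divided, with the 6 tested genes from Hoxa2 to Hoxa7 lower and the 4 tested from Hoxa9 to Hoxa13 higher. In the Hoxb cluster 1 gene was higher, 3 were lower and 3 did not pass. Over the 4 clusters, 3 of the 18 tested genes numbered 1 to 8 were higher and 12 lower. Of the 11 numbered 9 to 13, 9 were higher and 2 lower.

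**Figure D2:**
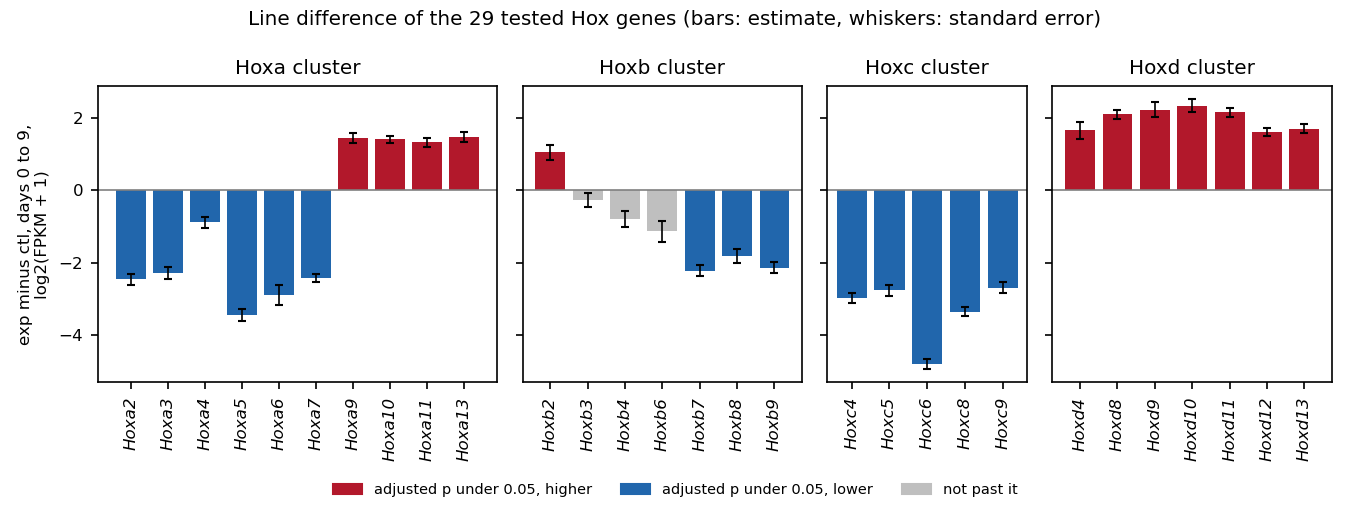
Exp-minus-ctl difference over days 0 to 9 of the 29 tested Hox genes in their order within the Hoxa, Hoxb, Hoxc and Hoxd clusters, on the log2(FPKM + 1) scale (bars, estimate, whiskers, standard error, red higher, blue lower, grey not past an adjusted p of 0.05). All Hoxc bars point down, all Hoxd bars point up, and the Hoxa bars change sign between Hoxa7 and Hoxa9.

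The 5 tested Hoxc genes, which passed the filter through their ctl values, were near 0 in exp. Hoxc6 (gene ID 15425, chromosome 15 at 102828688 to 102842312, plus strand) was at 0.0946, 0.243 and 0 FPKM in exp, 10 reads in all, and at 27.4, 29.1 and 32.7 in ctl, 4069 reads. Hoxc8 was at 0.106, 0.0233 and 0.0172 FPKM in exp and at 10.2, 9.18 and 9.81 in ctl. Hoxc4, Hoxc5 and Hoxc9 reached at most 0.139, 0.0184 and 0.0584 FPKM in exp and were at 5.19 or more in each ctl library. The differences ran from -2.69 (Hoxc9) to -4.79 (Hoxc6), each with lines that did not overlap. Hoxc10 to Hoxc13 were under the filter and not tested. Hoxc13 reached 1.68 FPKM in exp and 0.218 in ctl, and Hoxc12 reached 0.524 and 0.139. Hoxc10 reached 0.0865 FPKM in exp and 1.19 in ctl, and Hoxc11 reached 0.0446 and 0.

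In the Hoxd cluster the genes furthest toward the posterior end were abundant in both lines. Hoxd13, which patterns digits and the genital tubercle, was at 244.0, 296.0 and 274.0 FPKM in exp and at 83.4, 85.5 and 78.8 in ctl. Its difference was 1.70 ± 0.13 (adjusted p 0.000155 in limma). Hoxd10 was at 57.3, 37.9 and 45.9 FPKM in exp and at 7.46, 9.38 and 8.46 in ctl, a difference of 2.33 ± 0.17. Hoxd4, from the other end of the cluster, was at 4.51, 1.75 and 1.82 FPKM in exp and at no more than 0.138 in ctl, a difference of 1.65 ± 0.24. No Hoxd gene tested overlapped between the lines.

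Within the Hoxa cluster, Hoxa5, a gene of the neck and chest level, was at 3.31, 1.73 and 2.22 FPKM in exp and at 32.4, 36.1 and 39.0 in ctl (-3.45 ± 0.17). Hoxa7 was at 2.39, 2.21 and 2.55 FPKM in exp and at 16.4, 16.7 and 18.3 in ctl (-2.42 ± 0.11). On the other side, Hoxa10 was at 48.5, 39.4 and 40.8 FPKM in exp and at 16, 15.7 and 15 in ctl (1.40 ± 0.11). Hoxa13, which with Hoxd13 marks the ends of the limbs, was at 21.7, 24.6 and 26.8 FPKM in exp and at 8.55, 9.28 and 6.88 in ctl (1.46 ± 0.14). In the Hoxb cluster, Hoxb7 (-2.22), Hoxb8 (-1.82) and Hoxb9 (-2.14) were lower and Hoxb2 was higher (1.05). Hoxb3, Hoxb4 and Hoxb6 had adjusted p of 0.402, 0.059 and 0.0652 in limma. All 26 called Hox genes were also called on days 12 to 20 in 10 other libraries of the same lines, 12 higher and 14 lower.

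Outside the Hox clusters, 54 of 81 tested patterning factor genes passed, 29 higher and 25 lower in exp (66.7% called), with a median difference of 0.13. Without day 5, 31 passed, and with a filter of 5 FPKM, which tests fewer members, 32. Sim2 and Alx1, a homeobox gene of the facial mesenchyme, had the smallest p among those lower in exp. Alx1 was at 0.181, 0.199 and 0.131 FPKM in exp and at 18.3, 19.3 and 17.7 in ctl. Tfap2b, an AP-2 factor gene of neural crest and limb, was at 23.7, 28.5 and 28.8 FPKM in exp and at 1.86, 2.24 and 2.14 in ctl (3.18 ± 0.11, adjusted p 6.2e-06 in limma). Lhx9, a LIM homeobox gene of the limb and gonad, was at 35.9, 41.6 and 38.7 FPKM in exp and at 4.55, 4.65 and 4.08 in ctl (2.87 ± 0.11, adjusted p 9.61e-06 in limma). These levels moved little over the days in either line. Pitx1 and Tbx4, 2 further members, are named after their values were seen. They passed the filter through their exp values, and Alx1 through its ctl values, so the direction of these genes was set by that. Pitx1, a homeobox gene, was at 4.49, 3.27 and 6.54 FPKM in exp and at no more than 0.032 in ctl (adjusted p 0.000176 in limma). Tbx4, a T-box gene, was at 3.31, 3.27 and 3.42 FPKM in exp and at no more than 0.287 in ctl (adjusted p 0.000206 in limma).

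Of 30 tested genes that mark mesothelium or simple epithelium, 21 were higher and 2 lower in exp (76.7% called), with a median difference of 1.52. Members near 0 in ctl, such as Gpm6a, Lrrn4, Upk1b, Aldh1a2 and Wt1, passed the filter through their exp values alone. Their direction was set by that, so it is no separate support in the count or the median. Upk3b, Aldh1a2, Upk1b and Krt7 had the smallest p. Krt7, a keratin of simple epithelium, was at 11.5, 11.8 and 7.08 FPKM in exp and at 0.492, 0.349 and 0.419 in ctl (2.94 ± 0.17, adjusted p 6.02e-05 in limma). Aldh1a2 was at 11.7, 14.0 and 7.20 FPKM in exp and at 0.0138, 0.0764 and 0 in ctl (3.49 ± 0.18, adjusted p 3.31e-05 in limma). Wt1, the Wilms tumour factor gene and a defining mesothelial marker, was at 9.51, 8.64 and 4.02 FPKM in exp and at no more than 0.0202 in ctl. The list was not uniform. Msln, mesothelin, was at 78.3, 58.1 and 38.3 FPKM in exp and at 84.8, 89.9 and 103.0 in ctl, with an adjusted p of 0.13 in limma. Efemp1 (-2.55) and Cldn1 (-1.28) were lower in exp, and the epithelial genes Epcam, Cldn3, Cldn4 and Ocln stayed under 0.36 FPKM in every early library.

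Most of these genes were lowest on day 9. Of the 21 members higher in exp, 18 (85.7%) had their lowest early exp value on day 9, against 35% of all autosomal genes tested. In ctl, 13 of the 21 (61.9%) were lowest on day 9, against 31.3% of all. Several of these ctl values rest on few reads, such as 6 for Aldh1a2 and 19 for Upk1b over the 3 libraries. The order of the days is uncertain for such genes in ctl. The summed level of the 37 listed members in the files was 637.0, 701.0 and 456.0 FPKM in exp on days 0, 5 and 9, and 345.0, 387.0 and 371.0 FPKM in ctl. On later days the exp libraries spread further, from 403.0 FPKM in day 16 replicate 2 to 1860.0 in day 16 replicate 1, while ctl stayed between 386.0 and 400.0. Of the 79 autosomal genes higher in exp by at least 2 log2 units, 71 (89.9%) were lower in day 16 replicates 2 and 3 than in the other 3 late exp libraries, against 28.3% of all autosomal genes tested. In bulk RNA, fewer cells of a type and less RNA of a gene per cell cannot be told apart, and the part of such cells in the line difference was not tested.

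**Figure D3:**
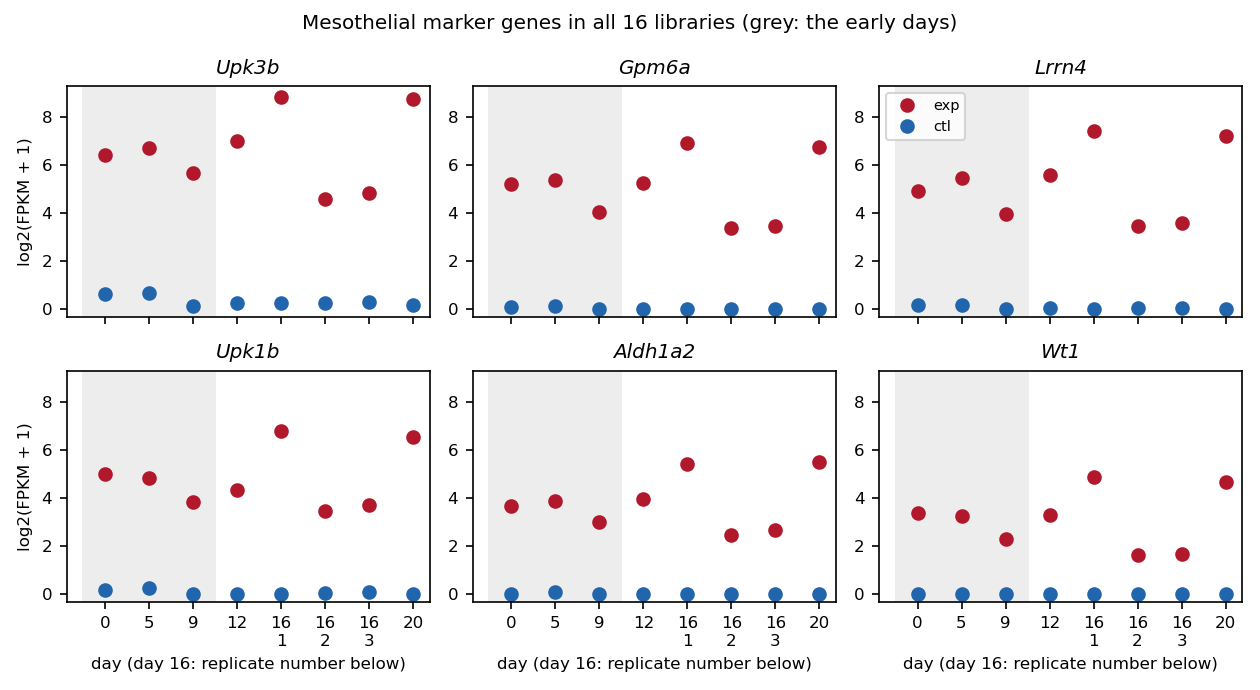
Level of 6 mesothelial marker genes, as log2(FPKM + 1), in all 16 libraries by day, with the 3 replicates of day 16 side by side (red exp, blue ctl, grey the early days). The 6 shown are all members far higher in exp. Msln, Efemp1 and Cldn1 of the same list are not shown and were not higher in exp. Blue points of the 6 stay below 1 throughout. Red points are lower on day 9 than on days 0 and 5 and are highest in day 16 replicate 1 or on day 20.

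Both lines carried the common fibroblast genes. Of 23 tested fibroblast markers, 4 were higher and 3 lower in exp, with a median of 0.18. Without day 5, 4 passed in all, and without day 0, 11. Col1a1, the main collagen chain of these cells, was at 643.0, 860.0 and 1040.0 FPKM in exp and at 854.0, 972.0 and 979.0 in ctl, with overlapping lines. Its partner chain gene Col1a2 was at 373.0, 629.0 and 653.0 FPKM in exp and at 85.6, 103.0 and 91.7 in ctl (2.51 ± 0.16, adjusted p 9.4e-05 in limma). Dcn, the decorin gene, was at 30.4, 34.3 and 22.4 FPKM in exp and at 3.04, 3.63 and 2.79 in ctl (2.84 ± 0.12). Pdgfra, the alpha receptor of platelet-derived growth factor, was at 15.2, 23.1 and 20.5 FPKM in exp and at 51.8, 59.2 and 49.4 in ctl (-1.42 ± 0.13). Thy1 and Fap, also used as fibroblast markers, were under the filter, at no more than 1.49 and 0.145 FPKM. The summed level of the 25 listed genes was 6790.0 to 8420.0 FPKM in exp and 6670.0 to 6850.0 in ctl.

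Of 19 tested markers of contractile cells, 8 were higher and 1 lower in exp, 10 did not pass, and the median was 0.31. Without day 5, 3 passed, and without day 9, 5. Cnn1, a calponin gene, was at 13.2, 10.8 and 11.2 FPKM in exp and at 5.37, 2.73 and 4.12 in ctl (1.36 ± 0.14). Acta2, smooth muscle actin, was at 159.0, 128.0 and 109.0 FPKM in exp and at 79.2, 50.4 and 63.8 in ctl (1.03 ± 0.14). Markers of other lineages were tested too where they passed the filter. Of 14 cartilage and bone markers, 5 were higher and 2 lower in exp, with summed levels of 390.0 to 476.0 FPKM in exp and 448.0 to 465.0 in ctl. Of 11 adipocyte markers, 4 were higher and 3 lower, with 159.0 to 180.0 FPKM in exp and 179.0 to 186.0 in ctl, and of 11 neural and neural crest markers, 4 were higher and 2 lower. Without day 5, 3 cartilage and bone markers and 4 adipocyte markers passed. Of 4 endothelial markers 2 were higher, with summed levels over the list of 28.5 to 37.6 FPKM in exp and 11.7 to 12.2 in ctl, and without day 5, 1 passed. Of 3 blood cell markers 0 were higher and 1 was lower, and without day 5, 0 passed. Their list summed to 9.08 to 12.7 FPKM in exp and to 12.4 or more in ctl. Of 6 skeletal muscle markers 0 passed, with summed levels of 21.1 to 29.9 FPKM in exp and 18.1 to 19.8 in ctl. Of 4 pluripotency and germ cell markers 0 passed, with 33.7 to 126.0 FPKM in exp and 43.5 to 80.9 in ctl. The defining markers of some lineages were at or near 0. Of the 17 endothelial markers under the filter, Pecam1, Cdh5 and Vwf reached at most 0.0613 FPKM. The highest of the 17 was Flt4, at up to 1.31 FPKM in exp and 1.06 in ctl. Of the 23 such blood cell markers, Ptprc reached 0.00691 and Adgre1 was listed at 0. The highest of the 23 was Fcer1g, at up to 1.68 FPKM in exp and 1.05 in ctl. Among skeletal muscle genes Myod1, Myf5 and Myog were listed at 0 in all 6 libraries, and among pluripotency genes Pou5f1 stayed at or under 0.0433 FPKM. The highest muscle gene under the filter was Pax3, at up to 1.74 FPKM in exp and 0.0179 in ctl. The highest such pluripotency gene was Nanog, at up to 0.541 FPKM in exp and 0.2 in ctl.

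Imprinted genes, which are read mainly from the copy of 1 parent, were mostly lower in exp where they differed. Of 36 tested, 4 were higher and 16 lower (55.6% called), with a median of -0.23. H19, a non-coding RNA gene, was at 59.6, 63.2 and 70.3 FPKM in exp and at 622.0, 762.0 and 691.0 in ctl (-3.40 ± 0.13, adjusted p 1.07e-05 in limma). Its neighbour Igf2, the growth factor gene that shares its imprinting control, was at 5.88, 6.35 and 9.59 FPKM in exp and at 74.1, 81.4 and 62.6 in ctl (-3.17 ± 0.19). Dlk1, a Notch ligand-like gene, was at 2.53, 2.03 and 3.33 FPKM in exp and at 40.3, 41.5 and 39.4 in ctl (-3.53 ± 0.14). For these genes the lines were far apart on each day. From the Dlk1 neighbourhood, Dio3 (-2.47), Meg3 (-2.11), Rian (-2.03) and Mirg (-1.48) were lower too, named here after their values were seen. The opposite direction was taken by Dcn, which is also counted among the fibroblast markers, and by Peg3. Peg3, a zinc finger gene, was at 10.9, 10.8 and 5.02 FPKM in exp and at 0.165, 0.130 and 0.112 in ctl (3.06 ± 0.21). Mest was at 7.72, 9.92 and 8.91 FPKM in exp and at 35.1, 46.3 and 41.3 in ctl (-2.09 ± 0.10). Without day 5, 10 of the 36 passed, in place of 20.

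**Figure D4:**
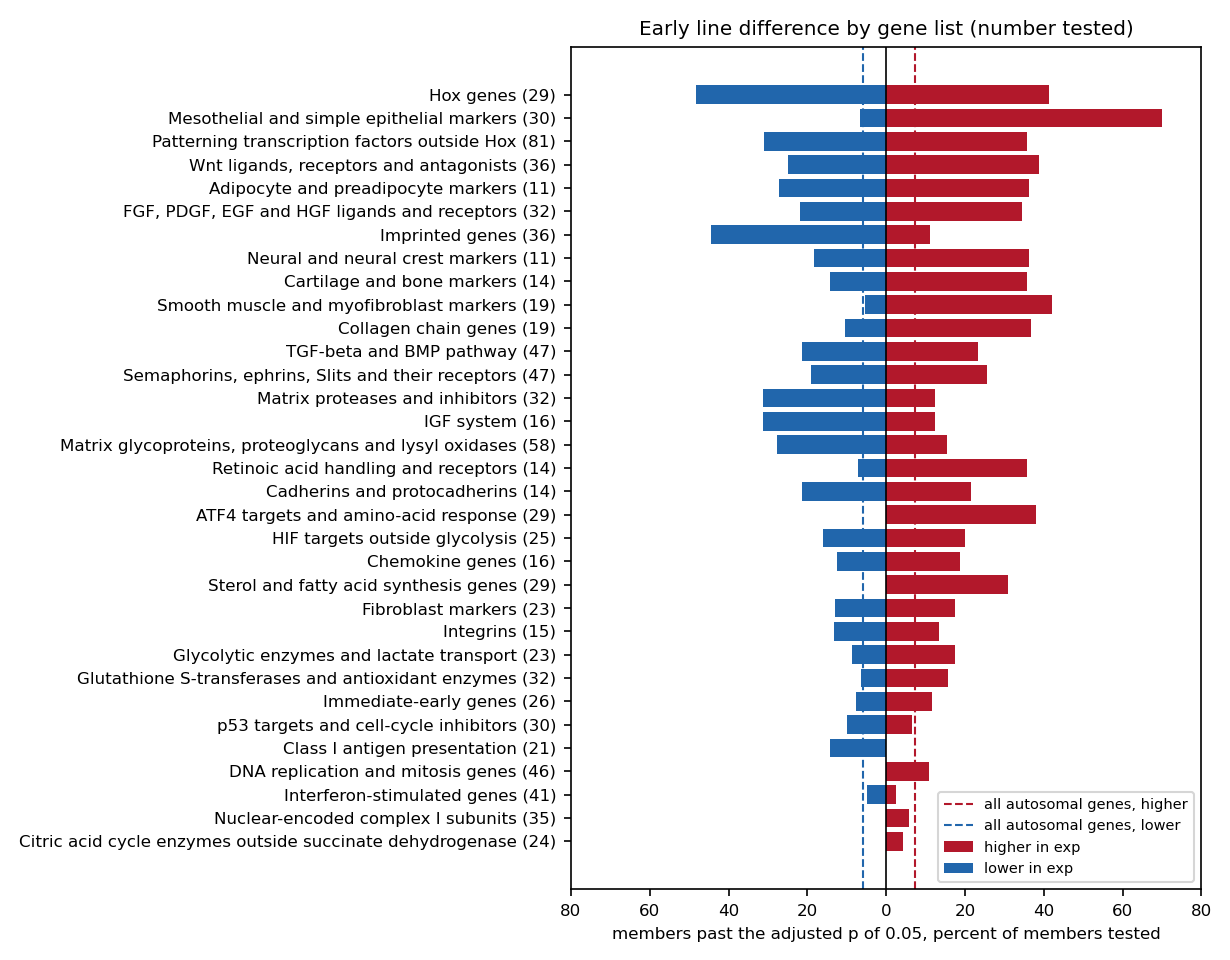
Share of tested autosomal members of each gene list with at least 10 tested that was higher (red, to the right) or lower (blue, to the left) in exp at an adjusted p under 0.05, in percent, with dashed lines at the shares over all autosomal genes (7.39 and 5.88). Hox genes and mesothelial markers are at the top, and interferon-stimulated genes, complex I subunits and citric acid cycle enzymes are at the bottom.

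Several signalling pathways had members at opposite levels. Of 36 tested Wnt ligand, receptor and antagonist genes, 14 were higher and 9 lower in exp, with a median of -0.24. Without day 5, 14 passed in all. Fzd1, a Wnt receptor, was at 22.8, 26.6 and 28.9 FPKM in exp and at 97.7, 122.0 and 106.0 in ctl (-2.02 ± 0.12), beside Wnt10a. Rspo1, which enhances Wnt signals, was at 6.27, 5.96 and 4.10 FPKM in exp and at no more than 0.235 in ctl (2.40 ± 0.16), and Nkd1, a Wnt inhibitor, was lower in exp (-1.88 ± 0.14). Of 47 tested TGF-beta and BMP genes, 11 were higher and 10 lower, with a median of 0.12, and without day 5, 13 passed in all. The BMP antagonist gene Grem1 was at 7.04, 6.57 and 5.98 FPKM in exp and at 88.5, 74.2 and 79.4 in ctl (-3.44 ± 0.11). Id1, a BMP target, was at 312.0, 167.0 and 210.0 FPKM in exp and at 67.6, 31.7 and 36.4 in ctl (2.35 ± 0.12). Tgfbr2, the type II TGF-beta receptor, was at 44.0, 55.9 and 48.1 FPKM in exp and at 203.0, 251.0 and 230.0 in ctl (-2.19 ± 0.12), and the inhibitory pseudoreceptor Bambi was higher in exp (1.78 ± 0.12).

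Genes of retinoic acid handling were higher in exp for 5 of 14 tested and lower for 1, with a median of 0.37. Beside Aldh1a2, Aldh1a1, a further retinal dehydrogenase gene, was at 10.4, 12.6 and 5.19 FPKM in exp and at no more than 0.116 in ctl (3.17 ± 0.24). Crabp1, which binds retinoic acid in the cell, was at 9.63, 10.9 and 17.2 FPKM in exp and at 99.1, 113.0 and 131.0 in ctl (-3.12 ± 0.12). Dhrs3, which reduces retinal, was higher in exp (1.38 ± 0.12). Of 32 tested FGF, PDGF, EGF and HGF genes, 11 were higher and 7 lower, with Fgfr3 (2.09), Pdgfd (1.57) and Pdgfb (1.5) on the first side and Pdgfra on the second. Of 16 IGF system genes, 2 were higher and 5 lower, with Igfbp6 (1.41) on the first side and Igf2, Igfbp7 (-1.84) and Irs1 (-1.03) on the second. Of 47 semaphorin, ephrin and Slit genes with their receptors, 12 were higher and 9 lower, among them Unc5b (2.02), Plxna2 (-1.88), Sema5a (-1.97) and Sema6a (1.53). Without day 5, 11 of the FGF, PDGF, EGF and HGF genes, 4 of the IGF system genes and 11 of the semaphorin, ephrin and Slit genes passed, and without day 9, 13 of the last.

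In the extracellular matrix, members were called in both directions. Of 19 tested collagen genes, 7 were higher and 2 lower, with a median of 0.32, and without day 5, 5 passed. Col12a1 was at 52.2, 80.3 and 60.5 FPKM in exp and at 21.9, 26.0 and 23.9 in ctl (1.37 ± 0.12), Col10a1 differed by 1.22 and Col8a2 by 1.68. Of 58 matrix glycoprotein, proteoglycan and lysyl oxidase genes, 9 were higher and 16 lower, with a median of -0.03. Fbn2, a fibrillin of developing tissue, was at 7.16, 10.7 and 11.8 FPKM in exp and at 33, 52.5 and 42.9 in ctl (-2.01 ± 0.12), and Thbs2, a thrombospondin gene, differed by -1.82. Of 32 protease and inhibitor genes, 4 were higher and 10 lower, and without day 5, 8 passed. Plau, urokinase, was at 9.55, 10.5 and 10.6 FPKM in exp and at 54.6, 52.3 and 54.5 in ctl (-2.29 ± 0.10). Its relative Plat, tissue plasminogen activator, was lower as well (-0.97 ± 0.12), while the aggrecanase-family gene Adamts9 was higher (2.2 ± 0.17).

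Few genes of mitochondrial metabolism passed. Of 24 tested genes listed with the citric acid cycle 1 was higher, Pck2 (0.62, adjusted p 0.0497 in limma), which is 4.17% against 13.3% of all autosomal genes. Pck2 is not an enzyme of the cycle itself. With a pseudocount of 5 or with no day factor, 0 of the 24 passed. Of 35 complex I subunit genes 2 were higher (5.71% called), Ndufs6 (0.63) and Ndufv2 (0.53), with a median of 0.32. Glycolytic genes had 4 of 23 higher and 2 lower, and targets of the hypoxia-inducible factor outside glycolysis 5 of 25 higher and 4 lower. Without day 5, 0 citric acid cycle, 0 complex I, 2 glycolytic and 5 hypoxia genes passed in limma, and without day 9, 0, 0, 3 and 4. The hypoxia targets went apart, with Car9, a carbonic anhydrase gene, at 18.5, 17.6 and 13.7 FPKM in exp and 7.38, 6.07 and 5.15 in ctl (1.29 ± 0.11), and Car12, of the same family, at 3.02, 4.02 and 2.75 FPKM in exp and 19.6, 20.9 and 19.9 in ctl (-2.32 ± 0.12). Ldhb, the lactate dehydrogenase B gene, was lower in exp (-1.24 ± 0.14).

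Targets of ATF4, the transcription factor of the amino-acid and stress response, were called in 1 direction, with 11 of 29 higher in exp, 0 lower and a median of 0.44. Trib3, a pseudokinase gene, was at 19.5, 25.9 and 42.8 FPKM in exp and at 7.03, 7.79 and 9.67 in ctl (1.67 ± 0.15, adjusted p 0.000393 in limma). Fgf21 was at 1.80, 1.86 and 1.90 FPKM in exp and at no more than 0.231 in ctl, Slc7a11, the cystine transporter, differed by 1.19, and Mthfd2, of mitochondrial folate metabolism, by 0.86. Without day 5, 3 of the 29 passed, and without day 9, 5. Sterol and fatty acid synthesis genes had 9 of 29 higher and 0 lower, with a median of 0.31. Fdps, which makes farnesyl diphosphate, was at 54.9, 47.3 and 59.5 FPKM in exp and at 28.1, 26.6 and 28.9 in ctl, with lines that did not overlap. It differed by 0.92, Dhcr7, of the last step to cholesterol, by 0.64 and Mvd, of the mevalonate pathway, by 0.58. Without day 5, 2 of these 29 passed. Of 46 replication and mitosis genes 5 were higher, among them Nusap1 (0.65), Cdc25c (0.54), Rrm2 (0.65) and Ccnb2 (0.48), and 0 were lower. That is 10.9% called, no more than the 13.3% of all autosomal genes tested. Without day 5, 0 of these 46 passed in limma, and without day 9, 1.

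Few interferon-stimulated genes passed early. Of 41 tested, 1 was higher and 2 lower (7.32% called), with a median of 0.04 and day medians of -0.14, -0.24 and 0.41 on days 0, 5 and 9. Gbp2, a guanylate-binding protein gene, was at 0.838, 1.71 and 1.41 FPKM in exp and at 7.90, 10.4 and 7.30 in ctl (-2.04 ± 0.14). Trim25 was lower (-0.98 ± 0.11) and Ifitm3 higher (0.68 ± 0.13). With median-of-ratios rescaling and without day 9, 6 of the 41 passed, and with quantile normalization and with voom, 7. Without day 9 all 6 were lower in exp and the median was -0.17. On days 12 to 20 the same list had 34 of 41 higher and 1 lower, with a median of 0.92. Class I antigen presentation genes had 0 of 21 higher and 3 lower early, which is 14.3% against 13.3% of all autosomal genes tested. The 3 were H2-T23 (-1.14), H2-M3 (-0.62) and H2-Q7 (-0.68). Without day 5, 1 of the 21 passed, and with voom, 7. H2-Q7 and H2-Q9 had nearly equal values in every library, so reads of these near-identical genes cannot be assigned to either.

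Some genes were on in a line and off in the other by fixed levels, at most 0.5 FPKM in all 3 libraries of a line and at least 5 FPKM in all 3 of the other. There were 18 such autosomal genes on in exp only, and 11 on in ctl only. All 29 were called, which is no separate support, because the levels were set on the same 6 libraries. Besides the 5 Hoxc genes, the ctl-only genes were Alx1, Pax9, Gdf7, Enpep, Stk32b and AW551984. Pax9, a paired-box factor gene, was at 0.428, 0.357 and 0.283 FPKM in exp and at 5.41, 6.10 and 6.17 in ctl. Gdf7, a BMP family ligand gene, was at no more than 0.0574 FPKM in exp and at 8.03, 10.7 and 13.1 in ctl, 4 reads against 1284. The exp-only genes included Lpl, lipoprotein lipase, with 1920 reads in exp against 10 in ctl, and Il33, an alarmin gene, with 1272 against 40. Of the 18, 17 stayed at or under 0.5 FPKM in all 5 late ctl libraries, and 7 stayed at or above 5 FPKM in all 5 late exp libraries. Of the 11, 7 stayed at or under 0.5 FPKM in all late exp libraries and 6 at or above 5 FPKM in all late ctl libraries.

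The early differences were compared with the 10 libraries of days 12, 16 and 20, which the early test did not use. Of the 1611 called early, 1581 (98.1%) had the same sign late, against 76.8% of all autosomal genes tested. Late, 2083 autosomal genes (17.1%) were called with the 3 replicates of day 16 averaged, and 1143 were called in both periods with the same sign, 70.9% of the early and 54.9% of the late calls. The late count was 630 without day 12, 844 without day 20 and 3686 with day 16 replicate 1 alone. Of the 167 genes with an early difference of at least 2 log2 units, 167 had the same sign late and 161 were called. For the 79 of these that were higher in exp, the median difference was 2.73, 2.65 and 2.48 on days 0, 5 and 9 and 2.95, 2.2 and 3.68 on days 12, 16 and 20. For the 88 that were lower it was -2.52, -2.65 and -2.71 early and -2.56, -2.09 and -2.42 late. Both periods come from the same 2 lines, so the late libraries cannot tell differences of line from differences of genotype either.

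A direct test of the late minus the early line difference called 0 autosomal genes in limma (lowest adjusted p 0.354), with 850 at an unadjusted p under 0.05. With all 16 libraries entered singly 23 were called, without day 9 there were 24, and without the day pairing 2, Gdf6 and Rspo3. Of the 23, 10 are on the interferon list, and of the 24, 13. Among genes called in both periods, 3 changed sign, H2-Q7, H2-Q9 and Gdf6. Gdf6, a BMP family ligand gene, was at 2.37, 2.05 and 2.34 FPKM in exp and at 5.26, 5.23 and 4.23 in ctl early (-0.86 ± 0.14, adjusted p 0.00618 in limma). Late it was at 5.09 to 9.82 FPKM in exp and 3.67 to 4.30 in ctl (0.53 ± 0.12, adjusted p 0.0424 in limma). Rspo3, another enhancer of Wnt signals, was higher in exp early (0.78) and late (2.15).

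The direction of the differences was uneven over the chromosomes. On chromosome 2, 79.0% of 990 tested genes were on the exp-higher side, with 123 called higher and 22 lower and a median difference of 0.172. On chromosome 8, 73.5% of 699 genes were on that side, with 67 called higher and 25 lower and a median of 0.143. Chromosome 11 was tilted the other way, with 32.2% of 1054 genes on the exp-higher side, 35 called higher, 90 lower and a median of -0.113. Chromosome 5 followed with 35% of 779 genes and a median of -0.08. Chromosome 12, tilted toward exp, had 68.1% of 442 genes on the exp-higher side and a median of 0.122. By day, the median of chromosome 2 was 0.196, 0.15 and 0.176 on days 0, 5 and 9 and 0.208, 0.041 and 0.139 on days 12, 16 and 20, and that of chromosome 11 was below 0 on each day.

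**Figure D5:**
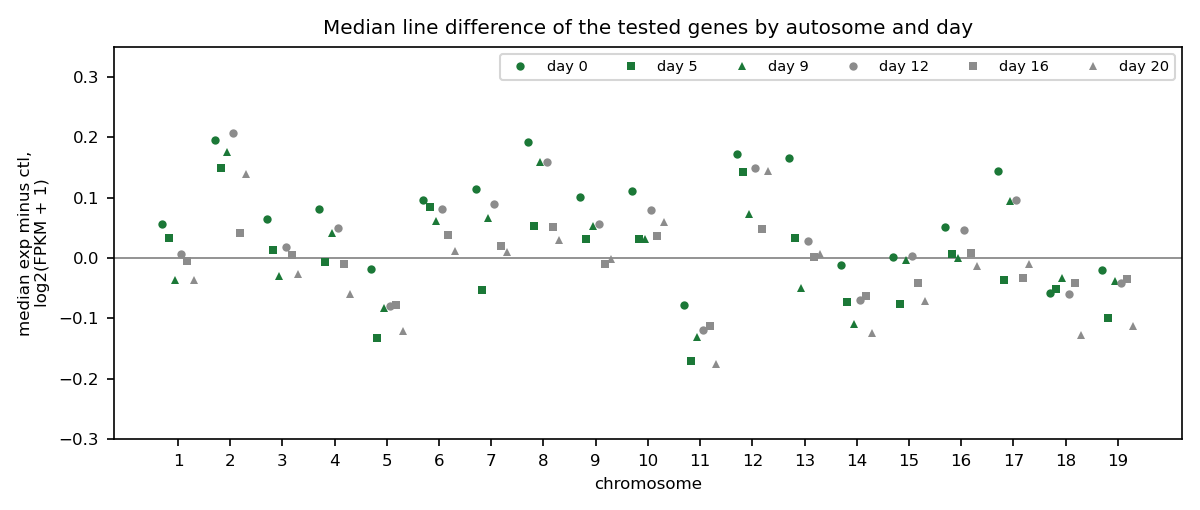
Median exp-minus-ctl difference of the tested genes of each autosome, on the log2(FPKM + 1) scale, by day (green early days, grey late days). Chromosome 2 is above 0 and chromosome 11 below 0 on all 6 days.

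The tilt was spread along these chromosomes. In windows of 20 megabases by mm9 position with at least 20 tested genes, all 10 windows of chromosome 2 had a median above 0, from 0.108 to 0.293, and all 7 of chromosome 8, from 0.068 to 0.211. All windows were above 0 on chromosomes 6, 9, 10 and 12 too, so this was not particular to chromosomes 2 and 8. On chromosome 11, 6 of 7 windows were below 0, and the window furthest from the centromere, with 37 genes, was at 0.023. After median-of-ratios rescaling and after quantile normalization, the medians were 0.141 and 0.139 for chromosome 2 and -0.145 and -0.148 for chromosome 11. These values are descriptions with no test, and the part of gene copy number in them was not tested.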

How the data were processed

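Poly(A) RNA libraries of 2 lines were analysed, 6 early and, for comparison, 10 late ones, assigned to line and day from their labels. The deposited values are FPKM per gene for 24485 gene IDs, and the submitters' processing notes name Bowtie2 2.2.3 and mm9. How reads were counted, on which annotation and with which strand rule is not given in the sources used here. Symbols were matched for 24416 IDs. The FPKM of 18966 genes were whole multiples of 1 read (largest distance 0.000666 read, accepted within 0.02), which gave reads and depth. By counting error alone, a value of 0 allows an expectation of as many as 3 reads.

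Line differences were fitted with limma 3.58.1 (statmod 1.5.0, R 4.3.3) on log2(FPKM + 1). The 12583 genes whose FPKM averaged 1 or more over the 6 libraries were tested, with a mean-variance trend, robust empirical Bayes and day as a factor, two-sided, Benjamini-Hochberg. Pairing by day follows the labels' days. Deviations of the same day in both lines correlated at 0.31, 0.36 and 0.074. Of the genes tested, 411 on X or Y and 26 without a nuclear chromosome stayed in the fit and out of the description. On simulated reads the fit found most changed genes, but its false calls exceeded the nominal rate.

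Named genes were the succinate dehydrogenase subunits, the 15 greatest called autosomal differences per direction with 1 sign on 3 days, lines not overlapping and 5 FPKM or more on average in the higher line, up to 4 members per list with the smallest p, and all Hox genes. Predicted genes, clones and small RNAs were not named, and 1 gene that the rule names is not reported here. Members, lists and tests were chosen with earlier results of these data known. Promoters are RefSeq's on GRCm38.p6 and gene positions GENCODE vM1 on mm9. Alternatives were other pseudocounts (0.1 and 5), filters, scalings, limma voom on the recovered reads, no day factor and each day left out.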

Additional observations from a re-analysis of the deposited data

How the results depend on the processing

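The early count of 1611 autosomal genes stayed within 1.5 times under 8 of 9 alternatives that kept all days, and it was 1052 with a filter of 5 FPKM and 719 to 1791 with a day left out. Without the replicate block, that is with no day factor, it was 1527, with 819 higher and 708 lower, against 897 and 714 in the paired fit. The shares higher ranged from 50.1% to 56.0% over all alternatives, against 55.7%. The late count of 2083 was 3686 with day 16 replicate 1 alone and 630 to 2320 with a day left out. The count of changes from early to late, 0 in the paired fit, was 23 with all 16 libraries entered singly, 2 without the replicate block and 0 to 24 with a day left out.

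With the filter of 5 FPKM, 15 Hox genes and 13 mesothelial markers were called, because fewer members were tested. Without any filter, 5 sterol and fatty acid synthesis genes were called. With a day left out, 24 to 28 Hox genes, 21 to 24 mesothelial markers, 10 to 19 imprinted genes, 3 to 15 ATF4 targets and 2 to 11 sterol and fatty acid synthesis genes passed. The Sdhc difference stayed negative and short of the threshold throughout. Of the 30 leading genes, 29 kept their direction and call under every one of the 12 alternatives that tested them. Tmem108 was not tested with the filter of 5 FPKM. Serpine2 no longer passed in limma with median-of-ratios rescaling (adjusted p 0.0594), with quantile normalization (0.0805) and without day 0 or day 5. The 30 were chosen as the greatest called differences in the same early libraries, so their stability is no separate support. Of all 1611 autosomal genes called early, 1414 were still called without day 0, 697 without day 5 and 893 without day 9. Sdha, which was not called, changed sign after median-of-ratios rescaling (-0.0033), after quantile normalization (-0.0191) and with a day left out (-0.0638 to 0.18).

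There is 1 line per genotype and 1 library per line and day, so the spread over days stands in for replicates, and exp varied more over days than ctl. Differences of genes near the filter are limited by depth and understated by the added 1 FPKM.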
